A study of Mus musculus with 23 samples.

Results

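The 44 genes described here run the cell division cycle, and they were chosen by name: a gene was a member if its symbol was on the list and a probe set of the array was assigned to that gene alone. Of the 44, 43 were measured and Ccnb1 had no such probe set here, and all 43 passed the filter on low values, among 12157 genes tested and 19938 genes with a 1-gene probe set. They fall into 5 roles. These are 11 genes of origin licensing and the replicative helicase, 5 of nucleotide supply, the sliding clamp and maintenance methylation, 7 measured genes for cyclins, a cyclin-dependent kinase and transcription factors, 10 of mitotic kinases, the spindle checkpoint and protein destruction, and 10 of the spindle, kinetochore, cytokinesis and chromosome structure.

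RNA was measured in 3 kinds of dendritic cell sorted from mouse spleen: conventional type 1 (cDC1), conventional type 2 (cDC2) and plasmacytoid (pDC). The mice either carried a conditional deletion of Bcl6 (cKO), which encodes a transcriptional repressor of germinal centre B cells, or were wild type (WT). Values came from 23 Affymetrix arrays, 1 per sample: 4 cKO cDC1, 3 WT cDC1, 5 cKO cDC2, 3 WT cDC2, 5 cKO pDC and 3 WT pDC. The sources used here give no Cre driver, strain background or age of the mice, and the labels do not say that the arrays of a group came from separate mice, so p-values measure the spread between these samples.

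Before a cell divides, the licensing factors load the MCM helicase onto replication origins, E-type and A-type cyclins with their kinases start DNA synthesis, and A-type and B-type cyclins with CDK1 drive entry into mitosis. Genes of the S phase are classically controlled by E2F factors and genes of mitosis by FOXM1, MYB-type factors and repressor complexes that bind a short element called CHR. Conventional dendritic cells of the spleen are renewed by dividing precursors and keep some division in the tissue, whereas plasmacytoid cells largely finish dividing in the bone marrow.

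Promoters were available for 36 of the 44 members, and 1 is printed for each role, that of the member whose 6 group means differed most. They show which short elements stand near the starts of genes that act together. Capitals mark matches to the elements searched on both strands: CHR (TTTGAA or TTCGAA), the CCAAT box (CCAAT) and an E2F site (TTTCCCGC, TTTCGCGC, TTTGCCGC or TTTGGCGC). The windows run from 250 bases before to 50 bases after the annotated start, from RefSeq on build GRCm38.p6, and are written 5′ to 3′ on the gene's strand.
Mcm3, chr1:20820263-20820562, minus strand: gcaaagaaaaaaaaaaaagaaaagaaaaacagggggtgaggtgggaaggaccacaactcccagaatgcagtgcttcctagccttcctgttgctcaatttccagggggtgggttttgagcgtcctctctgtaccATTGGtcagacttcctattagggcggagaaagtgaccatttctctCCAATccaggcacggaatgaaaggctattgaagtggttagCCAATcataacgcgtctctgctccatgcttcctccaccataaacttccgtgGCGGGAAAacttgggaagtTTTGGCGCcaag
Rrm2, chr12:24708004-24708303, plus strand: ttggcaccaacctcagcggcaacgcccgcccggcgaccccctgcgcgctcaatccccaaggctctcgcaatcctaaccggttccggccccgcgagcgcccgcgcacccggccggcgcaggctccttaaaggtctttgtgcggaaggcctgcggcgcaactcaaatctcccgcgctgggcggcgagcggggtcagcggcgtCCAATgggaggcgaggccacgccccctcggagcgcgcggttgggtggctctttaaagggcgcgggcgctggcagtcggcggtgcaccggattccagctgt
Ccne1, chr7:38107441-38107740, minus strand: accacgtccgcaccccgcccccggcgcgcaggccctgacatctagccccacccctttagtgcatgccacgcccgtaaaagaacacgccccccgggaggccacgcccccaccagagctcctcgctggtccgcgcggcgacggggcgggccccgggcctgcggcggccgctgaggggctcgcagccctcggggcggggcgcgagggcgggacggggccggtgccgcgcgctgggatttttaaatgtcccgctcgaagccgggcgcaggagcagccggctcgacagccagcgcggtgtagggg
Plk1, chr7:122159185-122159484, plus strand: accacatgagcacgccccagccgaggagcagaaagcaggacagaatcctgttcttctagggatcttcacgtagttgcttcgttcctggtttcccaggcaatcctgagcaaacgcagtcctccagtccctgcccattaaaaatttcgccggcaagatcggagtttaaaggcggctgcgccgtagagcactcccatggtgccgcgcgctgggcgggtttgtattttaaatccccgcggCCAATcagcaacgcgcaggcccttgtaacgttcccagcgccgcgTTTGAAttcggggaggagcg
Mki67, chr7:135716330-135716629, minus strand: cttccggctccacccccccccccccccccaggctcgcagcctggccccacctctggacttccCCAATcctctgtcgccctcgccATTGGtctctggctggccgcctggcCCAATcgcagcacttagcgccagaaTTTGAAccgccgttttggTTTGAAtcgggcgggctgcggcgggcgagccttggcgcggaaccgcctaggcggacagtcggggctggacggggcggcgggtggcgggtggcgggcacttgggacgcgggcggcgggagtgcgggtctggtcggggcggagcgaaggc

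The Mcm3 window held 3 CCAAT boxes and 2 E2F sites, the Rrm2 window 1 CCAAT box, and the Ccne1 window none of the elements. The Plk1 window held 1 CHR and 1 CCAAT box, and the Mki67 window 2 CHR matches and 3 CCAAT boxes. Of the 36 genes, 19 (52.8%) had a CHR in any of their promoters, against 19.2% of all 32851 promoters available. The CCAAT box was found for 29 genes (80.6%), against 37.4%, and the E2F site for 8 (22.2%), against 2.26%. Members were counted per gene and the background per promoter, so a gene with several promoters had more chances to match. The shares are therefore not like measures. The elements were spread unevenly over the roles. E2F sites stood in 6 of 9 licensing and helicase genes, 0 of 9 mitotic kinase genes and 0 of 8 spindle and chromosome genes. CHR stood in 8 of 9 mitotic kinase genes, 6 of 8 spindle and chromosome genes, 3 of 9 licensing genes and 0 of 5 nucleotide and clamp genes. A match is a description of letters and says nothing about which factor binds there.

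Levels are log2 of the deposited intensities, and the array medians lay between 29.3 and 41.2 on the linear scale. The arrays were divided by their median into 3 sets of 8, 6 and 9 arrays (medians 29.3 to 31.0, 31.6 to 34.3 and 38.9 to 41.2). Only the third set stood apart. The cut between the first 2 was a chosen one, since the second set holds a wider gap, from 32.4 to 33.5. The labels do not name the sets, and each set holds arrays of all 6 groups, so values within sets are given beside the results. The first replicate of each WT cell type, 3 arrays, had a high Xist level (10.90 to 11.89), against 3.79 to 5.07 on the other 20. Summed intensities of cell type markers were highest in the labelled type: the cDC1 list reached 8343 to 13675 in cKO cDC1 and 8071 to 12396 in WT cDC1, the cDC2 list 7560 to 10422 in cKO cDC2 and 6359 to 7540 in WT cDC2, and the pDC list 21131 to 31375 in cKO pDC and 19062 to 31737 in WT pDC. The sums were not fully separate, since pDC arrays reached 8283 on the cDC1 list and 6677 on the cDC2 list. Where the 1 Bcl6 probe set lies relative to the deleted part is not stated, so its level does not check the genotype labels: cKO minus WT was 0.96 in cDC1, 0.69 in cDC2 and −0.15 in pDC, none with an adjusted p below 0.05. The genotype comparisons are therefore between arrays labelled cKO and arrays labelled WT.

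Erythroid genes were high on the cDC2 arrays. Of 14 listed erythroid markers 8 were measured: Klf1, Epor, Alas2, Car1, Car2, Slc4a1, Rhag and Hemgn. Their summed intensity was 3858 to 10757 in cKO cDC2 and 3325 to 8915 in WT cDC2. It was 218 to 497 in cKO cDC1 and 195 to 413 in WT cDC1, and 319 to 773 in cKO pDC and 227 to 354 in WT pDC. All 8 were above the array median on some array of each cDC2 group, and at or below it on all arrays for 2 in cKO cDC1 and 4 in each of WT cDC1, cKO pDC and WT pDC. Car1, a carbonic anhydrase abundant in red cells, averaged 12.31 in cKO cDC2 and 12.31 in WT cDC2, against 5.82 in cKO cDC1 and 6.21 in WT cDC1. Klf1, the erythroid master transcription factor, averaged 6.74 in cKO cDC2 and 6.60 in WT cDC2, against 4.22 in cKO pDC and 4.37 in WT pDC. Erythroid precursors divide, so these values stand beside the cDC2 results, and their part in those results was not tested. In a bulk sample, fewer cells of a type and less RNA per cell cannot be told apart.

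The cell cycle genes separated conventional from plasmacytoid cells. Every one of the 43 averaged higher in cDC1 than in pDC and higher in cDC2 than in pDC, in cKO and in WT mice alike. The mean log2 level of the 43 genes was 6.91, 6.43, 7.23 and 7.11 on the cKO cDC1 arrays and 6.82, 6.72 and 7.11 on the WT cDC1 arrays. It was 7.52, 7.27, 7.11, 7.86 and 7.58 on the cKO cDC2 arrays and 7.92, 6.96 and 7.26 on the WT cDC2 arrays. On pDC arrays it was 5.23, 5.68, 5.37, 5.85 and 5.81 (cKO) and 5.35, 5.49 and 5.65 (WT). No pDC array reached the lowest conventional array, while cDC1 and cDC2 arrays overlapped and cKO arrays overlapped WT arrays in each cell type.

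**Figure D1:**
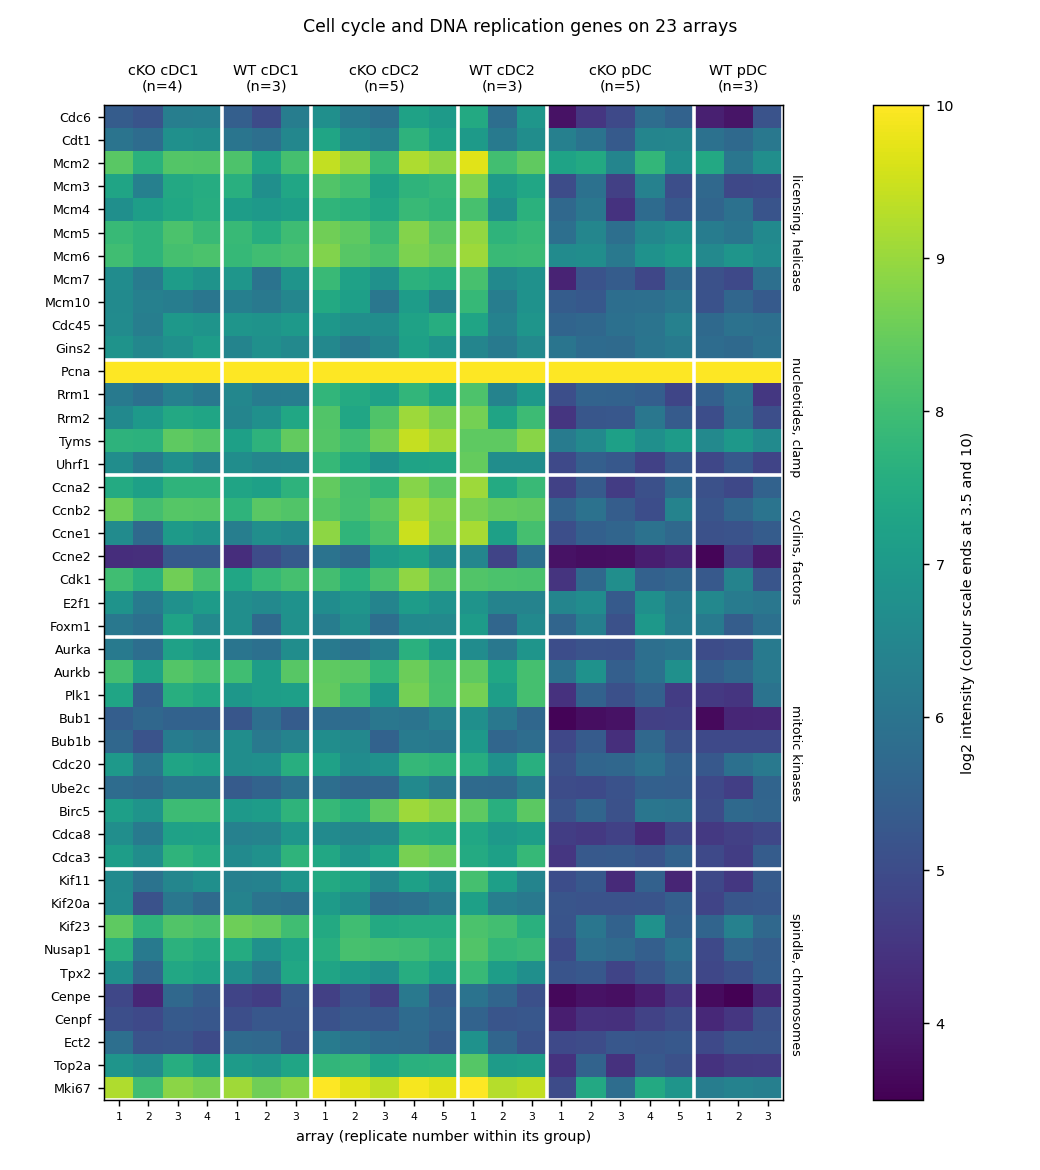
Log2 intensity of the 43 genes (rows, ordered by role) on the 23 arrays (columns, numbered by replicate within their group); the colour scale is cut at 3.5 and 10, and Pcna lies above it throughout. The cDC1 and cDC2 columns are brighter than the pDC columns in nearly every row, with no visible break between cKO and WT columns of a cell type.

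In cDC1 against pDC, 32 of 43 genes were higher in cKO mice and 29 of 43 in WT mice at an adjusted p below 0.05, and 0 were lower in either. Of all tested genes, 12.5% were called higher and 7.9% lower in cKO, and 8.37% higher and 5.14% lower in WT. The median log2 difference of the 43 was 1.33 in cKO and 1.30 in WT, against 0.05 in each over all genes tested. Groups did not overlap, with cDC1 higher, for 26 genes in cKO (background 10.8% higher and 6.69% lower) and 33 in WT (background 12.5% higher and 8.22% lower). Erythroid markers were low in both cell types and 0 of 8 passed this comparison in either genotype.

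In cDC2 against pDC, 40 of 43 were higher in cKO mice (13.5% of all genes tested were higher and 7.27% lower) and 35 of 43 in WT mice (7.93% higher and 4.8% lower), with 0 of the 43 lower. The median difference was 1.94 in cKO and 1.93 in WT, against 0.02 in each over all genes tested, and the groups did not overlap for 36 genes in cKO (background 9.61% higher and 5.04% lower) and 38 in WT (background 11.8% higher and 8.32% lower). Erythroid markers passed in the same direction, 7 of 8 in cKO and 5 of 8 in WT. The comparisons against pDC share the pDC arrays of their genotype. In WT the replicate numbers follow the array sets. With replicate number as a block, Cdc6, Mcm2, Mcm10, Rrm1, Ccne2, Aurka and Kif20a also passed in WT cDC1 against pDC (36 genes). In WT cDC2 against pDC, Aurka passed and Ccne2 did not (35 genes).

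Within the 3 array sets, each with 1 array per WT group and 1 or 2 per cKO group, the median difference of the 43 genes stayed above 0. For cDC1 minus pDC it was 1.44, 0.81 and 1.41 in cKO and 1.44, 1.12 and 1.45 in WT, and for cDC2 minus pDC 1.98, 1.68 and 1.99 in cKO and 2.72, 1.64 and 1.69 in WT. Many members lay near the floor in pDC: 6 to 17 of the 43 were at or below the array median on a pDC array, against 0 to 3 on a conventional array. The sizes of differences against pDC are uncertain where a gene is that dim. Ccne2, Bub1, Cdca8, Cenpe and Cenpf were above the median on no pDC array. They passed the filter only through the conventional arrays, where they were higher, so their calls against pDC are partly set by the filter. Cdc6 and Top2a were above the median on 2 cKO pDC arrays and 0 WT pDC arrays, fewer than the 3 arrays needed. Their calls against pDC are partly set by the filter in the same way. The counts of members called against pDC include these genes. Other lists also differed with cell type. B cell markers summed to 891 to 2000 on pDC arrays and 193 to 1028 on the others, and plasma cell markers to 1086 to 1661 in cKO pDC and 1192 to 1577 in WT pDC, against 135 to 736 on the conventional arrays. The 6 early progenitor markers summed to 912 to 1165 in cKO cDC1, 1114 to 1543 in WT cDC1, 981 to 1383 in cKO cDC2 and 1392 to 2097 in WT cDC2, against 366 to 558 in cKO pDC and 362 to 454 in WT pDC. Their top gene was the receptor Kit. It averaged 9.68 in cKO cDC1 and 10.06 in WT cDC1, against 7.80 in cKO pDC and 7.39 in WT pDC. Cd34 was at or below the median on all arrays, and Hlf on all cDC1 and WT pDC arrays. The median log2 level of the 6 markers was lower in cDC1 (5.23 in cKO and 5.32 in WT) than in pDC (5.61 and 5.62). In cDC2 it was 5.75 in cKO and 5.76 in WT. The part of these genes in the result was not tested.

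**Figure D2:**
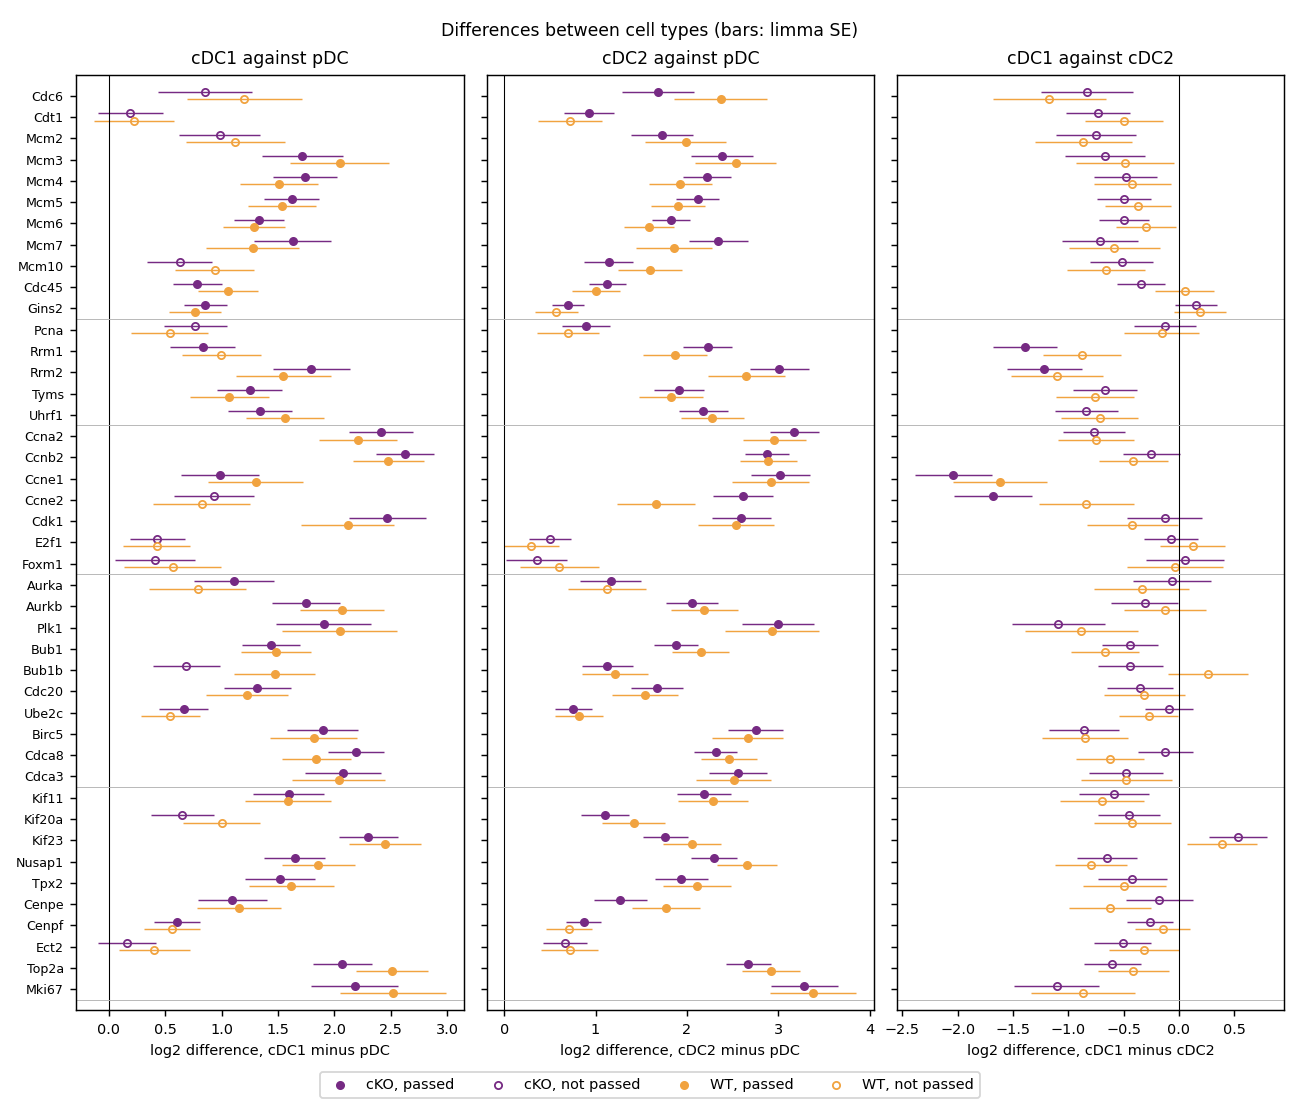
Log2 differences between cell types (x axis) for the 43 genes (rows, by role), with limma standard errors as bars, cKO in purple and WT in orange, and filled points where the adjusted p is below 0.05. All points lie right of 0 against pDC, and 38 WT and 40 cKO points lie left of 0 for cDC1 minus cDC2.

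Licensing factors and the replicative helicase were among the genes that differed. The shares of all genes tested given above for each comparison against pDC also stand beside the counts by role. Cdc6 and Cdt1 load the MCM helicase, Mcm2 to Mcm7 form it, and Mcm10, Cdc45 and Gins2 activate it. Against pDC, 7 of the 11 were higher in cDC1 in cKO and in WT, namely Mcm3 to Mcm7, Cdc45 and Gins2, and in cDC2 11 of 11 were higher in cKO and 9 of 11 in WT, where Cdt1 (0.72 ± 0.35) and Gins2 (0.57 ± 0.23) missed the threshold. Mcm3 read 7.30, 6.33, 7.42 and 7.51 in cKO cDC1 and 7.60, 6.75 and 7.34 in WT cDC1. The cDC2 values were 8.24, 8.0, 7.24, 7.72 and 7.82 in cKO cDC2 and 8.76, 7.05 and 7.34 in WT cDC2. In pDC the values were 5.02, 5.93, 4.74, 6.36 and 5.06 (cKO) and 5.69, 4.90 and 4.96 (WT). Its cDC2 arrays stood clear of pDC arrays in both genotypes, and its lowest cKO cDC1 array, replicate 2, lay just under the highest cKO pDC array. Mcm3 was higher in cDC1 than in pDC by 1.72 ± 0.36 in cKO (adjusted p = 0.00105) and 2.05 ± 0.44 in WT (adjusted p = 0.00186), and in cDC2 than in pDC by 2.38 ± 0.34 (adjusted p = 1.01e-05) and 2.53 ± 0.44 (adjusted p = 0.000216).

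Cdc6 was one of the dimmer licensing genes. It read 5.39, 5.18, 6.27 and 6.31 in cKO cDC1 and 5.46, 4.98 and 6.25 in WT cDC1. In cDC2 it reached 6.73, 6.14, 5.91, 7.25 and 7.04 in cKO cDC2 and 7.44, 5.85 and 6.92 in WT cDC2. The pDC arrays lay lower, at 3.82, 4.54, 4.95, 5.82 and 5.54 (cKO) and 4.07, 3.87 and 5.16 (WT). Its cDC1 and pDC arrays overlapped in both genotypes, and its cDC2 arrays did not overlap those of pDC. It passed in cDC2 against pDC (1.68 ± 0.39 in cKO, adjusted p = 0.00264, and 2.37 ± 0.51 in WT, adjusted p = 0.00193) and missed the threshold in cDC1 against pDC (0.85 ± 0.42 and 1.20 ± 0.51). The smallest differences of the role were those of Cdt1 in cDC1 against pDC, 0.19 ± 0.29 in cKO and 0.22 ± 0.35 in WT.

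Of the nucleotide and clamp genes, Rrm1 and Rrm2 encode the subunits of ribonucleotide reductase, Tyms thymidylate synthase, Pcna the sliding clamp of the replicative polymerases and Uhrf1 the factor that brings the maintenance methyltransferase to new DNA. Against pDC, 4 of 5 were higher in cDC1 in cKO and 3 of 5 in WT, and 5 of 5 and 4 of 5 in cDC2. Rrm2 read 6.58, 7.01, 7.44 and 7.31 in cKO cDC1 and 6.46, 6.77 and 7.36 in WT cDC1. It read 8.23, 7.33, 8.21, 9.05 and 8.67 in cKO cDC2 and 8.65, 7.28 and 7.97 in WT cDC2. Values on the pDC arrays were 4.49, 5.24, 5.27, 6.08 and 5.36 (cKO) and 5.03, 5.86 and 5.06 (WT). No conventional array overlapped a pDC array of its genotype. Rrm2 was 3.47-fold higher in cDC1 than in pDC in cKO (adjusted p = 0.000376) and 2.92-fold in WT (adjusted p = 0.0125), and 8.05-fold higher in cDC2 than in pDC in cKO (adjusted p = 1.6e-07) and 6.28-fold in WT (adjusted p = 6.67e-05). The WT call in cDC1 was lost without WT cDC1 replicate 3 or WT pDC replicate 1 (adjusted p up to 0.081).

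Uhrf1 read 6.69, 6.17, 6.73 and 6.39 in cKO cDC1 and 6.68, 6.48 and 6.54 in WT cDC1. The cDC2 values were 7.86, 7.40, 6.83, 7.28 and 7.29 in cKO cDC2 and 8.46, 6.69 and 6.69 in WT cDC2. Its pDC arrays read 4.93, 5.47, 5.30, 4.75 and 5.32 (cKO) and 4.89, 5.28 and 4.83 (WT). Every cDC2 array read above every cDC1 array of its genotype, and every cDC1 array above every pDC array. Only the steps to pDC passed: 1.34 ± 0.29 for cDC1 in cKO (adjusted p = 0.00116) and 1.56 ± 0.35 in WT (adjusted p = 0.00253), and 2.18 ± 0.27 and 2.28 ± 0.35 for cDC2. Pcna, measured by 2 probe sets, averaged 11.68 in cKO cDC1 and 11.66 in WT cDC1, and 10.92 in cKO pDC and 11.12 in WT pDC. It passed in 1 of the 4 comparisons against pDC, cDC2 in cKO (0.89 ± 0.26, adjusted p = 0.0161), and that call was lost without cKO cDC2 replicate 4, cKO pDC replicate 1 or cKO pDC replicate 2.

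Among the cyclins, kinase and factors, E2f1 and Foxm1 passed in no comparison of cell types in the fit of group means alone. E2f1 passed in cKO cDC2 against pDC with replicate number as a block or the array set as a term. In cKO cDC1 against pDC it passed with the set term. Ccna2 acts in S phase and at mitotic entry, Ccnb2 and Cdk1 at mitosis, and Ccne1 and Ccne2 at the start of S phase. In cDC1 against pDC 4 of 7 were higher in each genotype (Ccna2, Ccnb2, Ccne1 and Cdk1), and in cDC2 against pDC 5 of 7, with Ccne2 added, whose WT call was lost in 5 of 34 alternatives (WT cDC2 replicate 1 or WT pDC replicate 1 left out among them). Ccna2 read 7.47, 7.20, 7.73 and 7.74 in cKO cDC1 and 7.29, 7.19 and 7.69 in WT cDC1. In cDC2 it reached 8.44, 8.05, 7.80, 8.82 and 8.39 in cKO cDC2 and 9.04, 7.47 and 7.91 in WT cDC2. In pDC the values were 4.75, 5.36, 4.65, 5.08 and 5.77 (cKO) and 5.11, 4.90 and 5.54 (WT). Conventional arrays did not overlap pDC arrays. Ccna2 was 5.31-fold higher in cDC1 in cKO (adjusted p = 6.49e-07) and 4.62-fold in WT (adjusted p = 5.39e-05), and 9.04-fold higher in cDC2 in cKO (adjusted p = 3.37e-09) and 7.77-fold in WT (adjusted p = 1.29e-06). Ccnb2 was 6.16-fold higher in cDC1 in cKO and 5.57-fold in WT, and Cdk1 5.54-fold and 4.34-fold.

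E2f1, an activator of S phase genes, averaged 6.70 ± 0.39 (SD, n = 4) in cKO cDC1 and 6.69 ± 0.13 (n = 3) in WT cDC1, and 6.28 ± 0.57 (n = 5) in cKO pDC and 6.26 ± 0.24 (n = 3) in WT pDC. Foxm1, an activator of mitotic genes, averaged 6.45 ± 0.61 in cKO cDC1 and 6.40 ± 0.60 in WT cDC1, and 6.04 ± 0.70 in cKO pDC and 5.83 ± 0.39 in WT pDC. Their differences against pDC lay between 0.30 and 0.60, the smallest of the role, and the adjusted p-values between 0.145 and 0.673.

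Ccne1 was called between cDC1 and cDC2 in both genotypes. It read 6.63, 5.73, 7.03 and 6.83 in cKO cDC1 and 6.28, 6.71 and 6.58 in WT cDC1. It read 8.90, 7.76, 8.12, 9.48 and 8.72 in cKO cDC2 and 9.15, 7.19 and 8.08 in WT cDC2. The pDC arrays lay lower, at 5.06, 5.50, 5.63, 5.96 and 5.71 (cKO) and 5.11, 5.17 and 5.38 (WT). All cDC2 arrays lay above all cDC1 arrays in both genotypes, and 1 cKO cDC1 array, replicate 2 at 5.73, lay within the cKO pDC range. Its calls in cDC1 against pDC were close to the threshold (0.98 ± 0.35 in cKO, adjusted p = 0.0474, and 1.30 ± 0.42 in WT, adjusted p = 0.0418), and were lost in 17 and 10 of 34 alternatives (adjusted p up to 0.163 and 0.123), leaving out single arrays included.

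Aurka, Aurkb and Plk1 are mitotic kinases, Bub1 and Bub1b hold the spindle checkpoint, Cdc20 and Ube2c act with the anaphase-promoting complex, Birc5 and Cdca8 belong to the chromosomal passenger complex and Cdca3 helps trigger mitotic entry. In cDC1 9 of 10 were higher in cKO and 8 of 10 in WT, and in cDC2 10 of 10 and 9 of 10. Plk1 read 7.32, 5.49, 7.58 and 7.40 in cKO cDC1 and 6.94, 7.12 and 7.16 in WT cDC1. The cDC2 values were 8.45, 7.96, 7.02, 8.65 and 8.11 in cKO cDC2 and 8.65, 7.15 and 8.08 in WT cDC2. Values on the pDC arrays were 4.41, 5.54, 5.09, 5.52 and 4.66 (cKO) and 4.59, 4.51 and 5.98 (WT). Replicate 2 of cKO cDC1 alone overlapped the pDC arrays. Plk1 was higher in cDC1 than in pDC by 1.90 ± 0.42 in cKO (adjusted p = 0.00163) and 2.05 ± 0.51 in WT (adjusted p = 0.00681), and in cDC2 by 2.99 ± 0.40 (adjusted p = 3.38e-06) and 2.93 ± 0.51 (adjusted p = 0.000222).

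Birc5, which encodes survivin, read 7.18, 6.85, 7.96 and 7.96 in cKO cDC1 and 6.99, 7.09 and 7.73 in WT cDC1. In cDC2 it reached 7.86, 7.60, 8.39, 9.05 and 8.83 in cKO cDC2 and 8.39, 7.60 and 8.36 in WT cDC2. Its pDC arrays read 5.16, 5.62, 5.12, 6.05 and 6.01 (cKO) and 5.00, 5.72 and 5.63 (WT). Conventional and plasmacytoid arrays did not overlap. It was 3.72-fold higher in cDC1 than in pDC in cKO (adjusted p = 7.82e-05) and 3.52-fold in WT (adjusted p = 0.0016), and 6.74-fold higher in cDC2 in cKO (adjusted p = 1.83e-07) and 6.34-fold in WT (adjusted p = 2.24e-05). Bub1b passed in cDC1 against pDC in WT (1.47 ± 0.36, adjusted p = 0.00575) and missed the threshold in cKO (0.69 ± 0.30, adjusted p = 0.113); the difference between its genotype effects in cDC1 and pDC was −0.78 ± 0.46 and did not pass.

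Spindle, kinetochore and chromosome genes included Mki67, the proliferation marker Ki-67, and Top2a, the topoisomerase that untangles chromosomes. In cDC1 8 of 10 were higher than in pDC in cKO and 7 of 10 in WT, and in cDC2 9 of 10 and 8 of 10. Mki67 read 9.22, 8.0, 8.87 and 8.68 in cKO cDC1 and 9.08, 8.58 and 8.85 in WT cDC1. It read 10.26, 9.71, 9.38, 9.92 and 9.72 in cKO cDC2 and 10.41, 9.29 and 9.41 in WT cDC2. In pDC the values were 4.98, 7.41, 5.83, 7.45 and 6.89 (cKO) and 6.26, 6.38 and 6.31 (WT). The 3 cell types did not overlap in either genotype, and the cKO pDC arrays ranged more widely (SD 1.08) than the WT pDC arrays (SD 0.06). Mki67 was 4.53-fold higher in cDC1 than in pDC in cKO (adjusted p = 0.000162) and 5.73-fold in WT (adjusted p = 0.000439), and 9.74-fold higher in cDC2 in cKO (adjusted p = 2.64e-07) and 10.4-fold in WT (adjusted p = 1.38e-05).

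A second Top2a probe set was above the array median on 0 arrays, with group means from 2.88 to 3.22, and was not used. By the probe set used, Top2a read 6.90, 6.63, 7.55 and 7.11 in cKO cDC1 and 7.07, 6.88 and 7.32 in WT cDC1. The cDC2 values were 7.78, 7.82, 7.33, 7.63 and 7.68 in cKO cDC2 and 8.28, 7.07 and 7.15 in WT cDC2. The pDC arrays lay lower, at 4.46, 5.58, 4.43, 5.32 and 5.10 (cKO) and 4.45, 4.63 and 4.66 (WT). Every conventional array stood above every pDC array. The differences against pDC were 2.07 ± 0.26 for cDC1 in cKO (adjusted p = 1.76e-06) and 2.51 ± 0.32 in WT (adjusted p = 2.99e-06), and 2.67 ± 0.25 (adjusted p = 1.37e-08) and 2.92 ± 0.32 (adjusted p = 4.27e-07) for cDC2. The motors Kif11 and Kif23, the spindle proteins Nusap1 and Tpx2 and the kinetochore motor Cenpe passed in all 4 comparisons against pDC, the WT call of Cenpe in cDC1 being lost in 8 of 34 alternatives (adjusted p up to 0.173). Ect2, which activates the small GTPase of the cleavage furrow, passed in none (0.16 ± 0.26 and 0.40 ± 0.31 for cDC1, and 0.67 ± 0.24 and 0.72 ± 0.31 for cDC2, cKO and then WT). With the array set as a term Ect2 passed in cDC2 against pDC in both genotypes, and with the replicate block in cKO.

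**Figure D3:**
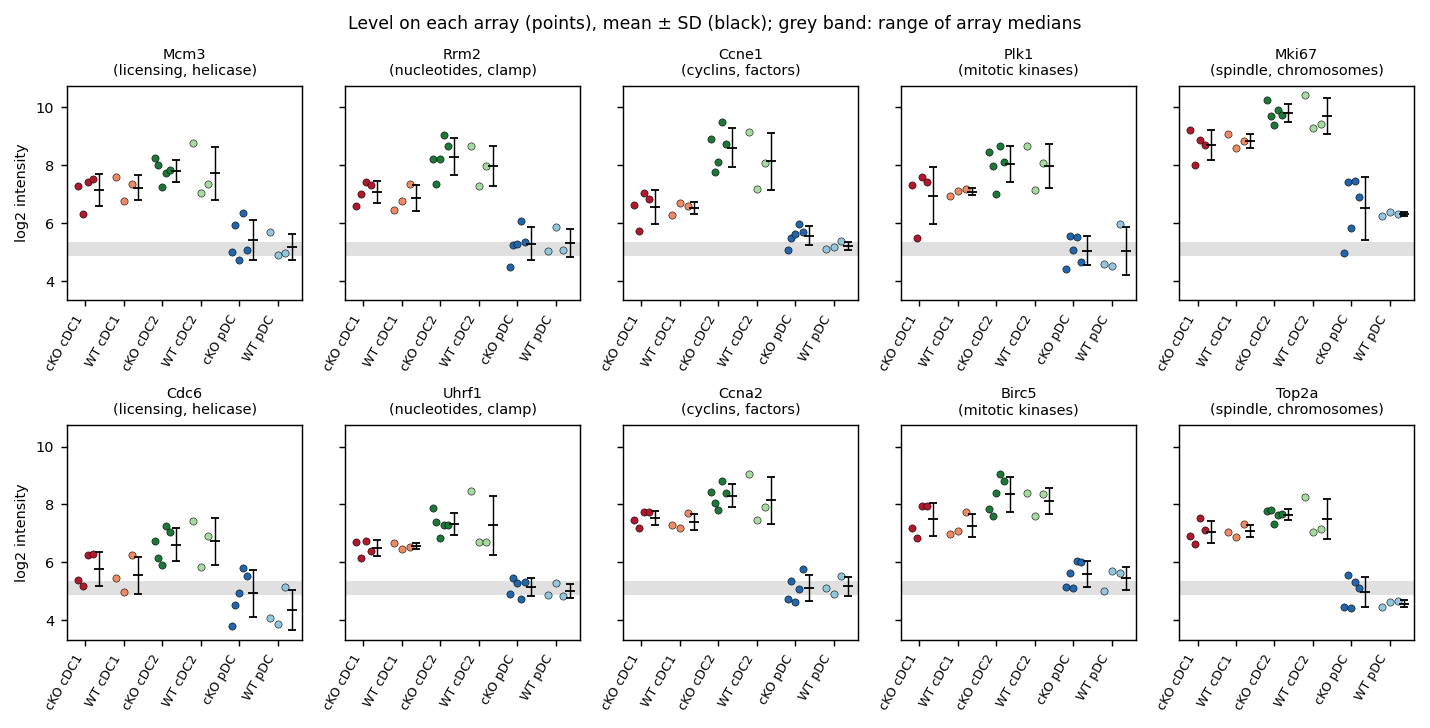
Log2 intensity on each array (points) for the 2 genes of each role whose group means differed most, with the mean ± SD of each group in black and a grey band for the range of array medians. Mki67 shows 3 separate levels, Ccne1 a gap between cDC2 and cDC1, and Cdc6, Plk1 and Top2a pDC points around the grey band.

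Conventional cells of the 2 types differed less from each other. In cKO mice 4 of the 43 were lower in cDC1 than in cDC2, namely Ccne1, Ccne2, Rrm1 and Rrm2, and 0 were higher; 4.95% of all genes tested were called lower and 4% higher. In WT mice 1 was lower, Ccne1, and 0 were higher, with 3.04% of all genes lower and 3.02% higher, so the members' share was no greater than the background in WT. With the array set as a term 13 genes were lower in cKO, with Cdc6, Cdt1, Mcm2, Tyms, Uhrf1, Ccna2, Plk1, Birc5 and Mki67 added to the 4. In WT 6 were lower with that term, with Cdc6, Mcm2, Rrm2, Tyms and Birc5 added to Ccne1. The sets were defined from these arrays, with a chosen cut between the first 2, so this is no independent evidence. The median difference was −0.50 in cKO and −0.49 in WT, against 0.04 in each over all genes tested, with 40 of 43 genes below 0 in cKO and 38 in WT. Leaving out 1 array gave −0.60 to −0.40 in cKO and −0.63 to −0.27 in WT, the WT median nearest 0 being that without WT cDC2 replicate 1, and without the 3 high-Xist arrays it was −0.19. Groups did not overlap, with cDC1 lower, for 7 genes in each genotype, and with cDC1 higher for 0 (background 6.14% lower and 5.01% higher in cKO, and 8.11% lower and 8.94% higher in WT).

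Ccne1 was 4.11-fold lower in cDC1 than in cDC2 in cKO (−2.04 ± 0.35, adjusted p = 0.00023) and 3.07-fold lower in WT (−1.62 ± 0.42, adjusted p = 0.0194). In cKO, Ccne2 was 3.2-fold lower (−1.68 ± 0.35, adjusted p = 0.00207), Rrm1 2.63-fold lower (−1.39 ± 0.29, adjusted p = 0.00183) and Rrm2 2.32-fold lower (−1.22 ± 0.34, adjusted p = 0.0247). In WT the last 3 were −0.84 ± 0.43, −0.88 ± 0.35 and −1.10 ± 0.42 and missed the threshold; whether these differences depend on genotype was tested over all members, and 0 of 43 passed. A few genes averaged higher in cDC1: Gins2, Foxm1 and Kif23 in cKO, and Cdc45, Gins2, E2f1, Bub1b and Kif23 in WT. Kif23, a motor of the central spindle, was highest of these at 0.53 ± 0.26 in cKO (adjusted p = 0.301) and 0.39 ± 0.32 in WT (adjusted p = 0.794).

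The cDC1 and cDC2 comparison runs alongside the erythroid difference. Of the 8 erythroid markers 7 were lower in cDC1 than in cDC2 in cKO and 6 in WT, with a median difference of −2.23 in cKO and −1.97 in WT. Within cDC2 the mean log2 level of the 8 markers was 7.98, 6.90, 7.53, 8.85 and 8.48 on cKO cDC2 arrays 1 to 5 and 8.22, 6.57 and 7.79 on WT cDC2 arrays 1 to 3. The array lowest in erythroid level, WT replicate 2, also had the lowest mean of the 43 genes among the 8 cDC2 arrays (6.96). In each genotype the array highest in erythroid level also had the highest mean of the 43 (cKO replicate 4 at 7.86 and WT replicate 1 at 7.92), while the lowest in cKO were different arrays, replicate 2 for erythroid level and replicate 3 for the 43 genes. The part of erythroid cells in the difference was not tested. Same-numbered WT arrays deviated together, and with replicate number as a block 6 genes were lower in WT cDC1: Cdc6, Tyms, Birc5, Nusap1 and Mki67 beside Ccne1 (adjusted p = 0.0498).

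Within the array sets the median cDC1 minus cDC2 difference of the 43 genes was −0.45, −0.55 and −0.48 in cKO and −1.06, −0.21 and −0.15 in WT. Each WT value is 1 array against 1, and each cKO value 1 or 2 arrays against 1 or 2. The WT call of Ccne1 was lost on leaving out any 1 of 4 arrays, WT cDC1 replicates 1 and 3 and WT cDC2 replicates 1 and 3 (adjusted p = 0.0919, 0.0533, 0.182 and 0.0528), and within the array sets it was −2.87, −0.47 and −1.50. In cKO it was −1.70, −2.39 and −2.17 within the sets, and the cKO calls of Ccne1, Ccne2 and Rrm1 held under all 34 alternatives run, while that of Rrm2 was lost without cKO cDC1 replicate 1 or 2 or without cKO cDC2 replicate 4 or 5 (adjusted p up to 0.106).

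**Figure D4:**
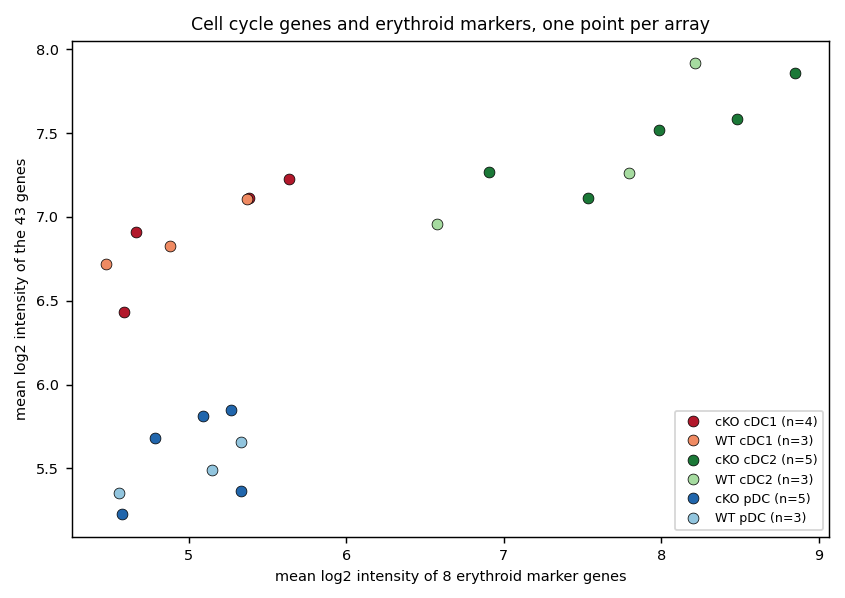
Mean log2 intensity of the 43 cell cycle genes (y axis) against that of 8 erythroid markers (x axis), 1 point per array, coloured by group. The 8 cDC2 arrays lie to the right, from 6.57 to 8.85 on the x axis, while cDC1 and pDC arrays share the same low erythroid range and differ on the y axis.

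No cell cycle gene passed the threshold between genotypes. In cKO against WT, 0 of 43 were called in cDC1 (0.814% of all genes tested were higher and 0.0165% lower), 0 of 43 in cDC2 (1.16% and 0.403%) and 0 of 43 in pDC (0.0329% and 0%). By limma at an unadjusted p below 0.05 the counts were 0, 1 and 0 of 43, against 3.28%, 6.5% and 1.99% of all genes tested. The median difference of the 43 was 0.05 in cDC1, 0.08 in cDC2 and 0.06 in pDC, against 0.06, 0.07 and 0.05 over all genes tested. The groups overlapped for every member in every cell type, where the background without overlap was 2.94% higher and 1.28% lower in cDC1, 3.27% and 1.45% in cDC2, and 0.477% and 0.189% in pDC.

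The size of difference that the arrays leave possible is given by the intervals. The 95% interval lay within a 2-fold change either way for 34 of 43 genes in cDC1, 35 in cDC2 and 35 in pDC, and within 4-fold for all 43 in each. The largest differences were −0.63 for Bub1b in cDC1 (interval −1.33 to 0.06), 0.79 for Ccne2 in cDC2 (0.00 to 1.58; unadjusted p = 0.0494, adjusted p = 0.766) and 0.57 for Cdc6 in pDC (−0.37 to 1.51). By role the medians lay between −0.06 and 0.16 in cDC1, −0.08 and 0.18 in cDC2, and −0.03 and 0.12 in pDC. The differences between the genotype effects of 2 cell types passed for 0 of 43 genes in each of the 3 pairs, with 0.173%, 0.321% and 0.362% of all genes called higher and 0.107%, 0.00823% and 0.123% lower for cDC1 minus cDC2, cDC1 minus pDC and cDC2 minus pDC.

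The small genotype medians did not keep 1 sign within the array sets. They were 0.12, −0.26 and 0.04 in cDC1, −0.54, 0.15 and 0.48 in cDC2 and 0.06, −0.15 and 0.25 in pDC. Each is 1 or 2 cKO arrays against 1 WT array. Erythroid markers did not pass in any genotype comparison, and their median cKO minus WT difference was 0.25 for cDC1, 0.38 for cDC2 and −0.03 for pDC. Markers of cDC2 summed to 1118 to 1285 in cKO cDC1, against 376 to 389 in WT cDC1, and the part of this difference in the cDC1 comparison was not tested.

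**Figure D5:**
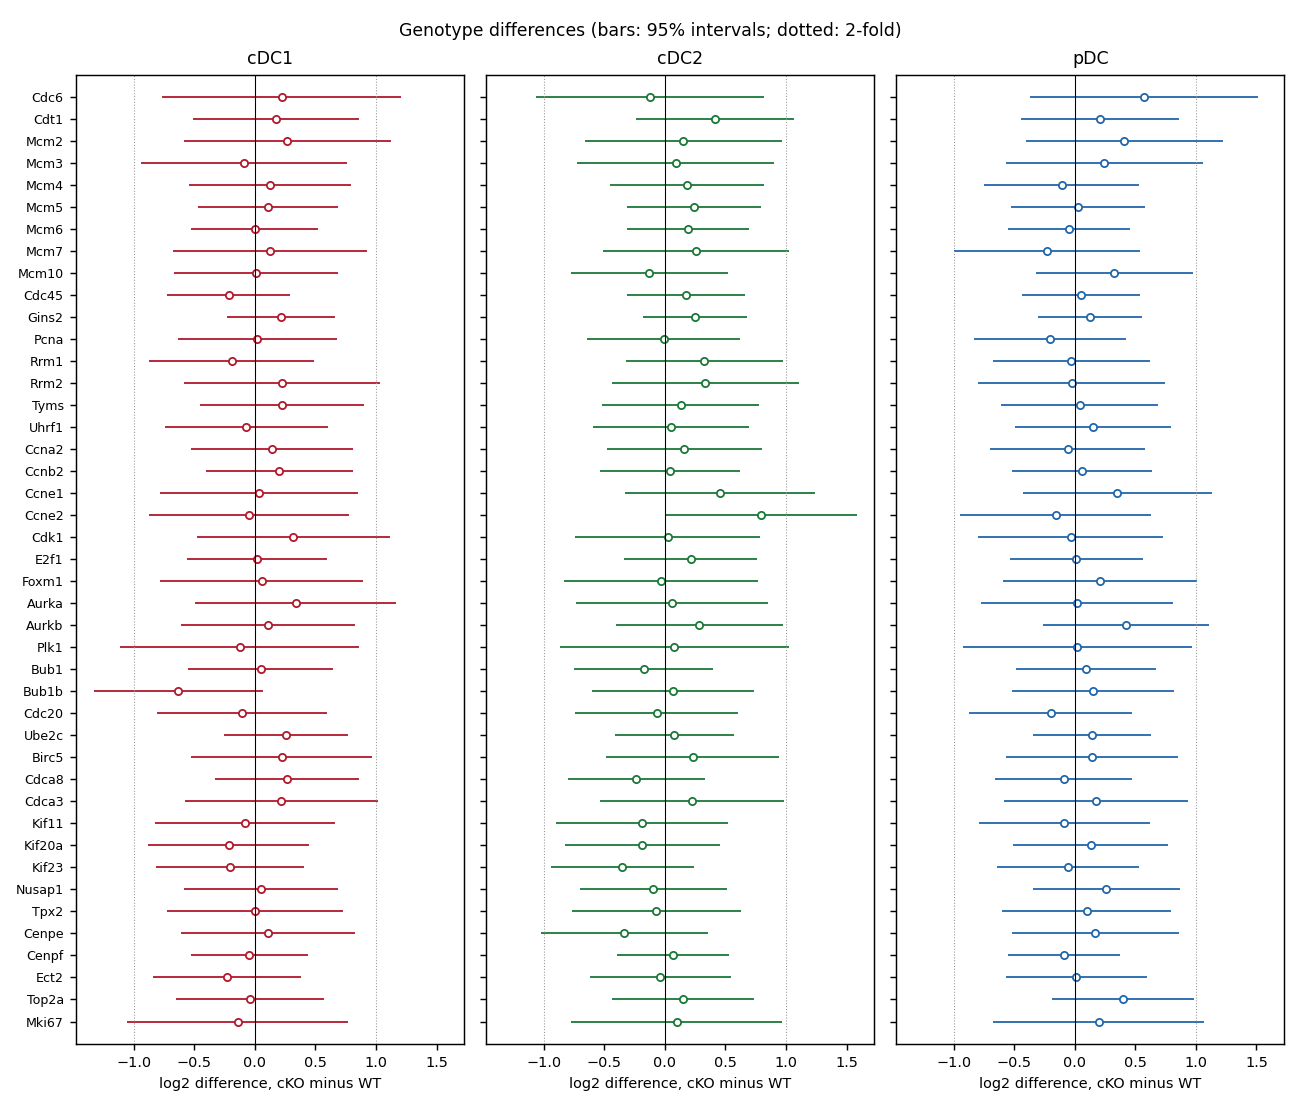
Log2 differences between cKO and WT arrays (x axis) for the 43 genes (rows, by role) in cDC1, cDC2 and pDC, with 95% intervals as bars and dotted lines at a 2-fold change. The points lie between −0.63 and 0.79, and the bars cross 0 for all but Ccne2 in cDC2.

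Other genes of the cycle, taken from lists kept apart from the members, differed between cell types in the same direction. Of 25 tested replication genes outside the members, 13 were higher in cDC1 than in pDC in cKO and 9 in WT, and in cDC2 19 and 12, with 0 lower. Of all genes tested, 12.5% were higher in cDC1 than in pDC in cKO and 8.37% in WT. For cDC2 against pDC these shares were 13.5% and 7.93%. The same shares stand beside the counts of mitosis genes against pDC. Hells, a chromatin remodeller of replicating cells, was higher in cDC1 than in pDC by 1.66 ± 0.22 in cKO (adjusted p = 4.61e-06) and 2.40 ± 0.27 in WT (adjusted p = 5.74e-07). Gins1, a helicase partner of Gins2, was higher by 2.20 ± 0.40 and 2.58 ± 0.49. Of 35 other mitosis genes, 23 were higher in cDC1 in cKO and 17 in WT, and in cDC2 30 and 28, again with 0 lower. Tacc3, a spindle protein, was higher in cDC1 by 1.99 ± 0.19 in cKO (adjusted p = 1.62e-08) and 1.96 ± 0.23 in WT (adjusted p = 7.58e-07), and Mad2l1, a checkpoint protein, by 1.93 ± 0.37 and 1.91 ± 0.45. Between cDC1 and cDC2, 0 of 25 replication genes passed in either genotype. Of 35 mitosis genes 1 passed, Cenpk in cKO (−1.24 ± 0.37, adjusted p = 0.0383), where 4.95% of all genes tested were lower and 4% higher. The Cenpk call was lost in 9 of 34 alternatives (adjusted p up to 0.128). Leaving out any 1 of the 4 cKO cDC1 arrays and 4 of the 5 cKO cDC2 arrays were among them.

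The D cyclins, which carry growth signals into the cycle, were not called higher in cDC1 than in pDC. Of 7 genes for D cyclins and interphase kinases, 1 was higher and 2 were lower in cDC1 against pDC in cKO, and 1 was higher and 1 lower in WT. Of all genes tested, 12.5% were higher and 7.9% lower in cKO, and 8.37% and 5.14% in WT, so a single call is near those shares. The higher gene was Cdc25a in each genotype. The lower genes were Ccnd1 (−1.26 ± 0.28, adjusted p = 0.00153) and Ccnd2 in cKO, and Ccnd2 in WT. In cDC2 against pDC, 13.5% of all genes tested were higher and 7.27% lower in cKO, and 7.93% and 4.8% in WT. The calls on this list were all higher there. They were Cdk4 (0.94 ± 0.21), Cdc25a (0.84 ± 0.28) and Ccnd3 (0.82 ± 0.22) in cKO. In WT they were Cdk2 (1.69 ± 0.50) and Cdc25a (1.10 ± 0.36, adjusted p = 0.0496). Ccnd2 was lower in cDC1 than in pDC by −1.03 ± 0.24 in cKO (adjusted p = 0.00269) and −1.72 ± 0.29 in WT (adjusted p = 0.000147). It was also lower in cDC1 than in cDC2, by −0.91 ± 0.24 in cKO (adjusted p = 0.0151) and −1.82 ± 0.29 in WT (adjusted p = 0.00016). Cdc25a, a phosphatase that activates the kinases, was higher in cDC1 than in pDC by 1.23 ± 0.30 in cKO (adjusted p = 0.00414) and 1.20 ± 0.36 in WT (adjusted p = 0.0285), the WT call being lost in 6 of 34 alternatives, WT cDC1 replicate 1 or 3 or WT pDC replicate 2 left out among them.

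Ccnd2 was also the only gene on the 7 other lists that passed in a genotype comparison. In cDC1, 0.814% of all genes tested were called higher and 0.0165% lower, so 1 call over these lists is near the background. Ccnd2 is a known target of BCL6 repression in B cells. It read 8.82, 9.35, 9.41 and 9.24 in cKO cDC1 and 7.93, 7.36 and 8.41 in WT cDC1. Every cKO array lay above every WT array, with a difference of 1.31 ± 0.27 (adjusted p = 0.0134). Markers of cDC2 were higher in the same comparison (sums of 1118 to 1285 in cKO cDC1, against 376 to 389 in WT cDC1), and Ccnd2 averaged 9.72 in WT cDC2, against 7.90 in WT cDC1; the part of these markers in the result was not tested. The call was lost in 6 of 34 alternatives, with a difference of 1.04 to 1.32 and an adjusted p of up to 0.221: without WT cDC1 replicate 1 or 2 or cKO cDC1 replicate 3, without the high-Xist arrays, with only the groups compared, and with replicate number as a block (adjusted p = 0.0762). In cDC2 the difference was 0.40 ± 0.26 and in pDC 0.62 ± 0.26, neither of which passed. Of the 4 tested cell-cycle genes that BCL6 represses in B cells, Ccnd2 alone passed.

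Brakes and regulators of the cycle included calls in both directions. In cDC1 against pDC, 12.5% of all genes tested were higher and 7.9% lower in cKO, and 8.37% higher and 5.14% lower in WT. A single call in a direction on a list of 11 or 12 genes is near those shares. Of 12 CDK inhibitors and pocket proteins, Btg2, an antiproliferative gene, was higher in cDC1 than in pDC (0.79 ± 0.24 in cKO, adjusted p = 0.019, and 1.16 ± 0.29 in WT, adjusted p = 0.00693), a call lost in 5 and 2 of 34 alternatives, and Cdkn2d, an inhibitor of the D-type cyclin kinases, was lower (−1.90 ± 0.36, adjusted p = 0.000319, and −1.89 ± 0.43, adjusted p = 0.00346). Of 11 E2F, MYB and MYC factors, E2f8, a late repressor among the E2F family, was higher in cDC1 (1.91 ± 0.30 in cKO and 1.76 ± 0.37 in WT) and in cDC2 (2.69 ± 0.28 and 2.38 ± 0.37) than in pDC. In cKO, E2f5 (0.92 ± 0.29, adjusted p = 0.0231) and Tfdp1 (0.92 ± 0.25, adjusted p = 0.011) were also higher in cDC1 than in pDC. Myc was lower in cDC1 than in cDC2 by −1.17 ± 0.36 in cKO (adjusted p = 0.0444) and −1.59 ± 0.44 in WT (adjusted p = 0.0291), calls that were lost in 13 and 6 of 34 alternatives (adjusted p up to 0.182 and 0.134), most of them with 1 array of a compared group left out. In cKO, E2f2 (−1.43 ± 0.27, adjusted p = 0.000779) and Myb (−0.92 ± 0.29, adjusted p = 0.0459) were also lower in cDC1 than in cDC2. Mycl was higher there (1.48 ± 0.42, adjusted p = 0.0279). Of all genes tested, 4.95% were lower and 4% higher in that comparison. Myb went the other way from E2f8: it was lower in cDC1 than in pDC by −1.87 ± 0.29 in cKO (adjusted p = 2.74e-05, kept in all 34 alternatives), against −0.94 ± 0.35 in WT, which missed the threshold (adjusted p = 0.0841). Of 11 tested DNA damage and p53 response genes, Gadd45g was higher in cDC1 than in pDC by 2.49 ± 0.30 in cKO and 2.06 ± 0.37 in WT, and Sesn1 lower in cKO (−0.63 ± 0.21, adjusted p = 0.0395). The Sesn1 call was lost in 10 of 34 alternatives (adjusted p up to 0.234), among them quantile normalization, the replicate block and only the groups compared.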

How the data were processed

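Intensities were deposited by the authors on a linear scale after RMA (background correction, quantile normalization and summarisation per probe set) in Affymetrix Expression Console, per the submitters' processing notes, with no versions given; the values were used as log2. The file held 28853 probe sets, of which 21789 named 1 gene in the platform annotation, 1621 several and 5443 none; the brightest probe set on average stood for a gene. A gene was tested if it was above the array median on at least 3 arrays. limma 3.58.1 (R 4.3.3) fitted 1 mean per group to all 23 arrays (17 residual degrees of freedom), with Benjamini-Hochberg adjustment over 12157 genes and a threshold of 0.05; the code was tested on simulated data. Arrays number 3 to 5 per group, which limits precision.

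All members were named; per-array values are for the 2 per role with the widest span of group means, and other lists give up to 4 passing genes. Members and lists were chosen with earlier results of these data known. Same-numbered arrays deviated together for WT cell types (correlations over genes 0.38 to 0.70) and for cKO against WT cDC1 (0.44 to 0.54). The replicate number is in the sample titles. These same-numbered arrays also fell in the same array set, so pairing and array set cannot be told apart. Other comparisons had pairs below 0.1. Alternatives covered filter, normalization, probe set, arrays in the fit, weights, blocks, array set and single arrays.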

Additional observations from a re-analysis of the deposited data

Results flagged for a closer look

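In 5 of 129 combinations of a member and a group of 4 or 5 arrays (3.88%), 1 array stood apart from the rest of its group by Dixon's ratio, which chance gives in about 5% of groups. Of these, 3 were on cKO cDC1 replicate 2: Mcm2 read 7.65 there, with the nearest other array at 8.24, Plk1 5.49 (nearest 7.32) and Nusap1 6.18 (nearest 7.50). That array also had the lowest mean of the 43 genes among cDC1 arrays (6.43). Kif23 read 8.0 on cKO cDC2 replicate 2 (nearest 7.53), and Kif20a 5.48 on cKO pDC replicate 5 (nearest 5.23).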

How the results depend on the processing

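The counts of members called against pDC kept their direction in all 34 alternatives. Where no single array was left out they were 30 to 41 (cKO) and 21 to 38 (WT) for cDC1, and 40 to 42 (cKO) and 25 to 41 (WT) for cDC2, the lowest WT counts without the 3 high-Xist arrays. Leaving out 1 array gave 26 to 36 and 22 to 31 for cDC1, and 37 to 41 and 30 to 37 for cDC2. Of the genes called, 26 of 32 and 20 of 29 for cDC1, and 37 of 40 and 25 of 35 for cDC2, passed under every alternative. Counts for the genotype comparisons and for the differences between genotype effects were 0 under every alternative. For cDC1 minus cDC2 in cKO (4 called), the count was 8 with quantile normalization, 7 with array medians subtracted, 7 with only the groups compared, 11 with array weights, 7 with the replicate block and 13 with the array set as a term, and 3 to 6 leaving out 1 array. In WT (1 called) it was 0 with only the groups compared, 0 without the 3 high-Xist arrays, 6 with the replicate block, 6 with the set term and 0 to 2 leaving out 1 array; Ccne1 was −0.99 (adjusted p = 0.482) without the high-Xist arrays. Replicate number and array set split the WT arrays the same way, so the replicate block and the set term are not separate checks there. The replicate block changed no other count by over 1.5 times. Ccne1 in cDC2 reversed in sign (0.46 as reported, −0.020 without WT cDC2 replicate 2 and up to 0.96 leaving out another array, cKO minus WT), and the genotype effect of Cdc6 in cDC2 minus pDC (−0.69 as reported, 0.0072 with array weights); neither passed in any fit, and the cause was not tested. Genes at or below the array median in pDC have differences that low signal limits. All alternatives were planned with earlier results known.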
